A study of Rattus norvegicus with 14 samples.

Results

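Heat shock proteins and DnaJ cochaperones were examined in RNA-seq libraries of rat hippocampal neurons and astrocytes. The genes were taken by symbol, as all those starting with Hspa, Hspb, Hspd, Hspe, Hsph, Hsp90 or Dnaj, without Hspa5, Hsp90b1 and Dnajb9 of the endoplasmic reticulum (ER), and with normalized counts averaging 10 or more in either culture. This gave 65 genes out of 16308 that passed the same minimum, and 63 of them passed it in each culture. Of 70 symbols with these beginnings, 5 stayed below the minimum (Dnajb7, Dnajb8, Dnajc5b, Dnajc5g and Hspb3). Just inside was Hspb9, with a mean of 10.2 normalized counts in neurons, and just outside was Dnajb7, with 3.10. Dnajc22 and Hspb2 were below the minimum in neurons, and Hspb7 and Hspb9 in astrocytes. Hspa1b, the near-identical partner of Hspa1a, was not among these 70 symbols, so Hspa1a was read without it.

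All cells came from hippocampi of embryonic day 18 Sprague Dawley rats and were kept in Aging-Model (AM) medium, which has less supplement or stripped serum to imitate the loss of trophic factors with age. Allopregnanolone (Allo), a neurosteroid that acts on the GABA-A receptor, was given at 100 nM, and the vehicle (Veh) was dilute ethanol. Neurons were taken at culture day 10, kept 4 h in AM medium and treated for 16 h (4 AM-Veh and 4 AM-Allo libraries), whereas astrocytes were kept 24 h in AM medium and treated for 24 h (3 AM-Veh and 3 AM-Allo libraries). Neither the labels nor the methods say which libraries came from separate animals, so p-values measure the spread between these libraries, which may be technical. The neuron libraries carry numbers of 2 parts, and those whose number begins with 1 (set 1) stood apart from those that begin with 2 (set 2).

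Heat shock proteins keep other proteins folded. HSP70 proteins bind exposed stretches of an unfolded chain and hold or release them as they bind and split ATP. DnaJ proteins, the J-domain family, hand clients to HSP70 and start the splitting of ATP, HSP110 proteins exchange the spent nucleotide, and HSP90 finishes kinases and steroid receptors. Small heat shock proteins hold unfolded chains without ATP, and HSP60 with its lid HSP10 forms a folding chamber in mitochondria. When unfolded protein builds up, heat shock factor 1 binds repeated GAA and TTC blocks in the promoters of the inducible members and raises their transcription. In the brain, neurons are known for a weaker heat shock response than glia, and chaperones are studied there for their hold on aggregating proteins.

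Depth was similar throughout, at an estimated 19.6 to 25.2 M reads on genes in neurons and 22.2 to 28.2 M in astrocytes. Of the cell type markers, 5 neuron genes took 0.198% to 0.240% of the counts in neuron libraries and 0.105% to 0.111% in astrocyte libraries. Map2, Rbfox3, Tubb3 and Syn1 stood higher in the labelled neurons, whereas Stmn2 did not, at 9470 normalized counts in AM-Veh neurons and 21790 in AM-Veh astrocytes, where it made up most of the sum. The 7 astrocyte markers (Gfap, Aqp4, Slc1a3, Slc1a2, Aldoc, S100b and Sox9) took 0.817% to 1.08% in the neuron libraries and 0.967% to 1.03% in the astrocyte libraries, so the ranges overlapped and the libraries labelled as neurons held astrocyte RNA throughout. The 7 oligodendrocyte lineage markers took 0.166% to 0.202% in neurons and 0.0164% to 0.0182% in astrocytes. Levels below are therefore those of mixed cultures, in which fewer cells of a type and less RNA per cell cannot be told apart.

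The 65 genes together took 0.818% of all counts in AM-Veh neurons and 0.679% in AM-Veh astrocytes. Levels are given in counts per 1 M (CPM) of the normalized counts, because each culture had its own normalization, and the cultures were set side by side with no test. Of the 65, 13 had a neuron to astrocyte ratio above 2, 8 had a ratio under 0.5, and 44 lay between. Counts were not divided by transcript length, so they order the reads of the genes and not their molecules.

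HSP90 genes held the most counts. Hsp90ab1, the constitutive cytosolic HSP90, stood at 2074 ± 34.5 CPM (SD, n = 4) in neurons and 1870 ± 23.9 (SD, n = 3) in astrocytes. Hsp90aa1, its inducible partner, stood at 1021 ± 23.3 and 909 ± 27.2. RefSeq names 23 pseudogenes after Hsp90ab1, 16 after Hsp90aa1 and 20 after Hspd1, so their counts are uncertain where near-identical copies share reads. Both HSP90 genes together took 37.8% of the members' counts in neurons and 40.9% in astrocytes. The next genes by counts in neurons were Hspd1, Hspa9, Hspa4, Dnaja1, Dnajc7, Hspa8, Dnaja2 and Hsph1, and in astrocytes Hspb1, Hspa4, Dnaja1, Hspa8, Hspb8, Hspd1, Hspa9 and Dnajc10.

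The members with the highest neuron to astrocyte ratios came first from the DNAJC and HSP70 families. Dnajc6 (auxilin), which brings Hspa8 to clathrin coats to strip them, stood at 94.9 ± 7.21 CPM in neurons and 1.89 ± 0.376 in astrocytes, a ratio of 50.2. Hspa12a, a distant HSP70 relative, stood at 77.4 ± 5.55 and 2.72 ± 0.332, a ratio of 28.4. Dnajc5, the cysteine string protein of synaptic vesicles, showed a smaller ratio of 2.14. In mitochondria, Hspd1 (HSP60) stood at 587 ± 3.06 CPM in neurons against 227 ± 3.42 in astrocytes, and Hspe1 (HSP10) at 78.3 ± 1.78 against 22.5 ± 1.71. Hspa9 (mortalin), the mitochondrial HSP70, had a ratio of 2.29, and Dnajc11, a J protein of the mitochondrial membranes, one of 2.27. Hspb9 and Hspa12b, at 0.431 and 1.26 CPM in neurons, also had ratios above 2 (3.59 and 2.65) but rest on few reads.

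Several small heat shock proteins had more counts in astrocytes. The 7 Hspb genes, grouped as small HSP by symbol alone and without Hspbap1 and Hspbp1, summed to 195 CPM in neurons and 568 in astrocytes. This was the only one of the 9 groups of members with a lower sum in neurons. Hspb1 (HSP27) stood at 42.2 ± 15.3 CPM in neurons and 270 ± 6.12 in astrocytes, a ratio of 0.156. Hspb2, a small HSP known from muscle, had a ratio of 0.0393, and Hspb6 (HSP20) one of 0.303. Hspb1 and Hspb8 made up most of the sum, Hspb11 was nearly level at a ratio of 0.919, and Hspb9 and Hspb7 had ratios of 3.59 and 1.63. Mesenchymal markers made up 0.00280% to 0.0116% of neuron counts beside 0.254% to 0.301% of astrocyte counts, and their part in these levels was not tested. Hspa1a, the inducible HSP70, stood at 11.2 ± 1.95 in neurons and 63.4 ± 0.432 in astrocytes, a ratio of 0.177. Dnajb13, a J protein of motile cilia, had a ratio of 0.294, and the ependymal markers stood at 0.00320% to 0.00378% of neuron counts beside 0.0113% to 0.0144% of astrocyte counts. The constitutive HSP70 Hspa8 was level, at 224 ± 10.5 and 235 ± 2.78 CPM.

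**Figure D1:**
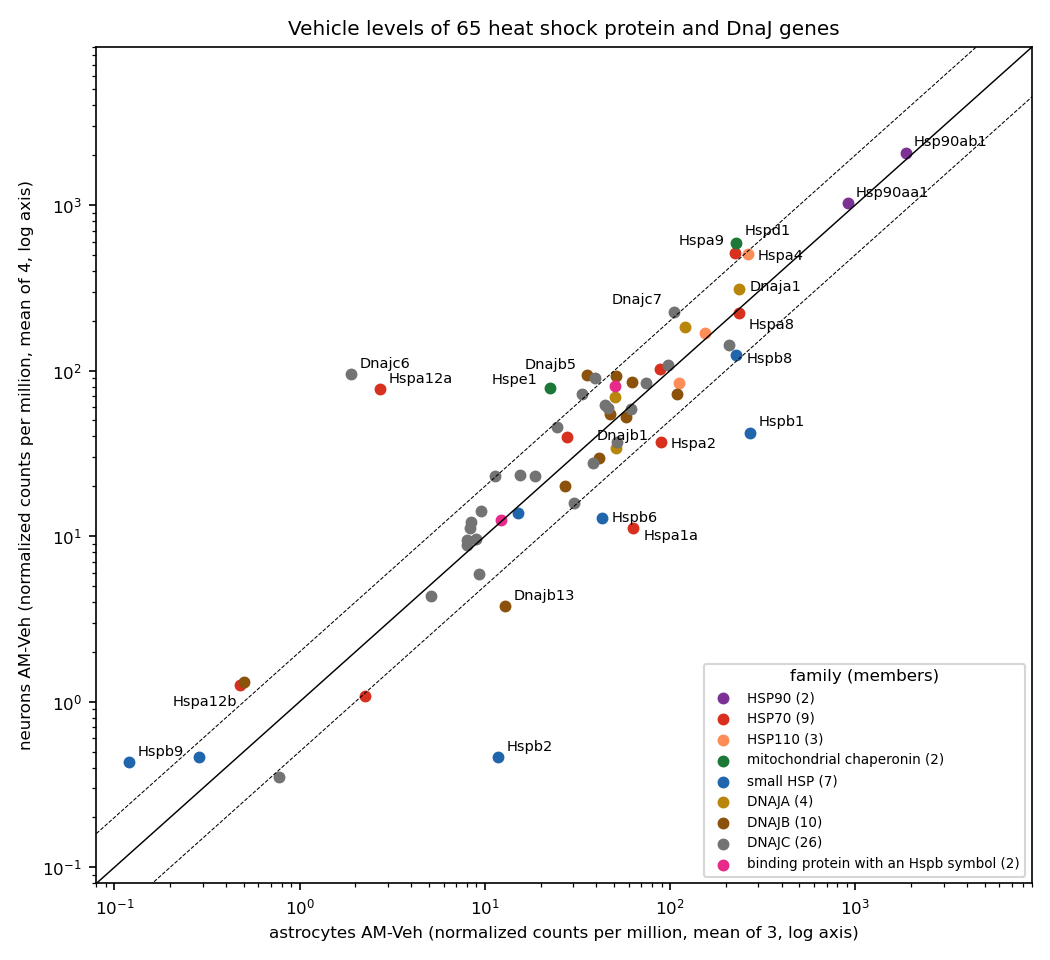
Level of each of the 65 genes in AM-Veh libraries, as CPM of normalized counts on log axes, with the mean of 4 neuron libraries on the vertical axis and of 3 astrocyte libraries on the horizontal axis. Points are coloured by family, the solid line marks equal levels and the dashed lines a 2-fold difference. Dnajc6 and Hspa12a sit far above the line and Hspb2, Hspb1 and Hspa1a far below it, while Hsp90ab1, Hsp90aa1 and Hspa8 lie near it.

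The first comparison asked whether Allo changed these genes in neurons. Relative to AM-Veh, 3 of the 63 tested members fell at an unadjusted p of 0.05, the threshold of the study, and 0 rose. They were Dnajc4, Dnajb1 and Hspe1. Over all 15314 genes, 5.69% passed in either direction and 2.48% as lower. No member passed after Benjamini-Hochberg adjustment over all genes, the lowest adjusted p being 0.694 by limma. Of the 63, 44 lay below 0 (69.8%), against 50.8% of all genes, and the median log2 difference was -0.020, against -0.0015 for all genes.

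Dnajc4, a membrane-bound J protein whose clients are little known, had the largest fall of these 3. Its 4 AM-Veh libraries stood at 218, 206, 203 and 222 normalized counts and its AM-Allo libraries at 172, 198, 178 and 171. The groups were separate, AM-Allo being the lower, with a log2 difference of -0.24 ± 0.079 (SE) and p = 0.012 by limma (two-sided exact permutation p = 0.0286, the smallest that 4 against 4 allows).

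Dnajb1 (HSP40), the inducible J protein that works with Hspa1a and Hspa8, stood at 1209, 1170, 1208 and 1060 normalized counts in AM-Veh and 1062, 1050, 1031 and 1080 in AM-Allo. The AM-Veh library 2-2 lay within the AM-Allo range and the other AM-Veh libraries above it. The log2 difference was -0.14 ± 0.048 (SE), with p = 0.017 by limma and an exact permutation p of 0.0857. Without AM-Veh 1-1 or without AM-Veh 2-1 the difference was -0.12 and missed the threshold.

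Hspe1, the lid of the mitochondrial folding chamber, stood at 1743, 1700, 1790 and 1703 normalized counts in AM-Veh and 1605, 1571, 1675 and 1658 in AM-Allo. The groups did not overlap. The log2 difference was -0.092 ± 0.036 (SE), with p = 0.026 by limma and an exact permutation p of 0.0286. It missed the threshold without AM-Veh 1-1, AM-Veh 2-1, AM-Allo 1-1 or AM-Allo 1-2, at -0.089, -0.077, -0.086 and -0.075. Hspd1, the chamber itself, stood at 12912, 12976, 13010 and 13091 in AM-Veh and 12586, 12585, 12380 and 12784 in AM-Allo, again with no overlap. Its log2 difference of -0.047 gave p = 0.096 by limma and an exact permutation p of 0.0286. These 2 genes and Dnajc4 were the members whose groups were separate in neurons, all 3 lower, where 1.89% of all genes were separate with AM-Allo lower.

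The neuron libraries with the same number deviated together, so a fit with the set as a block was read beside the first. With this block 8 members fell and 0 rose, where 5.24% of all genes passed as lower. The 3 genes above were among them, joined by Hspb1, Hspa2, Dnaja1, Hspa1a and Hspd1, and in all 8 the difference was below 0 within set 1 and within set 2. With the whole number as the block 7 of these 8 fell, where 5.04% of all genes passed as lower, and Hspd1 was the one that did not pass. No member passed the adjustment under either block, the lowest adjusted p being 0.189 and 0.113. The counts without the block depended on single libraries, with 1 member called without AM-Veh 2-1 and 5 without AM-Veh 2-2.

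**Figure D2:**
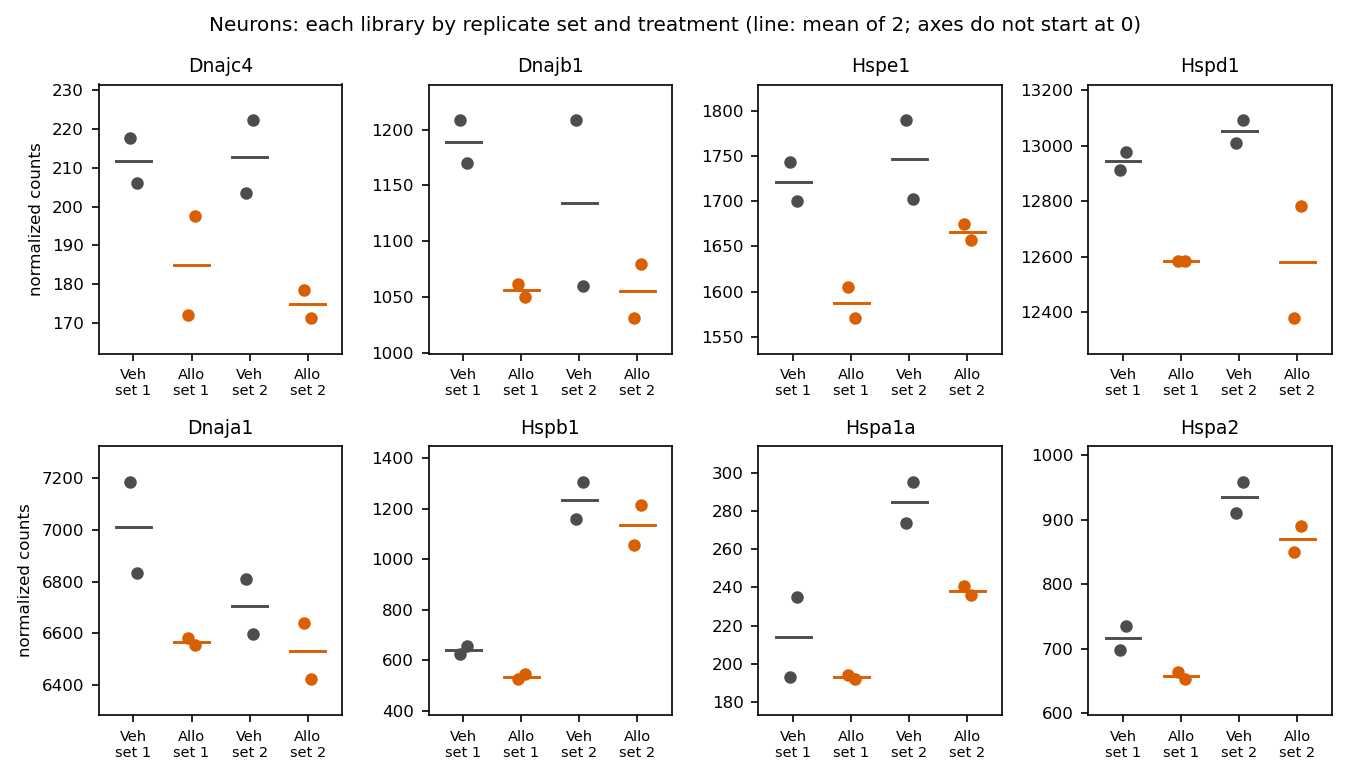
Normalized counts of the 8 members that fell in neurons when the replicate set was a block, with a point for each library, a line at the mean of 2, AM-Veh in grey and AM-Allo in orange. In each panel the AM-Allo mean lies below the AM-Veh mean of the same set, while Hspb1, Hspa1a and Hspa2 also stand higher in set 2. The vertical axes do not start at 0.

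Hspb1, which caps unfolded chains and steadies actin filaments, differed most between the fits. In set 1 it stood at 626 and 655 normalized counts in AM-Veh and 525 and 546 in AM-Allo, and in set 2 at 1158 and 1307 in AM-Veh and 1056 and 1214 in AM-Allo. Both AM-Allo libraries of set 1 lay below both AM-Veh libraries of that set, while those of set 2 overlapped. The log2 difference was -0.19, with p = 0.0043 by limma with the block and 0.57 without it (exact permutation p = 0.543). Without AM-Allo 1-1 and with no block the difference was 0.0011.

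Hspa1a stood at 193 and 235 normalized counts in AM-Veh and 194 and 192 in AM-Allo of set 1, and at 274 and 296 against 241 and 236 in set 2. Its AM-Allo libraries were separate from AM-Veh in set 2 only, and the log2 difference of -0.20 gave p = 0.028 by limma with the block and 0.18 without it (exact permutation p = 0.314). Hspa2, an HSP70 best known from the testis, stood at 697 and 736 against 665 and 652 in set 1 and at 910 and 959 against 849 and 890 in set 2. The groups were separate within each set, with a log2 difference of -0.11 and p = 0.019 by limma with the block and 0.40 without it (exact permutation p = 0.514). Here and for every neuron gene, the exact test exchanged libraries across the sets, so its p also carries the spread between sets. Dnaja1, which assists Hspa8 in the cytosol, stood at 7185, 6834, 6811 and 6599 in AM-Veh and 6581, 6556, 6642 and 6423 in AM-Allo. AM-Veh 2-2 lay within the AM-Allo range, and the log2 difference of -0.065 gave p = 0.024 by limma with the block and 0.066 without it (exact permutation p = 0.0571).

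A heat shock response list was counted on its own, with Hspa1a, Hspa1l, Hspa8, Hsph1, Hspb1, Hspb8, Hspd1, Hspe1, Hsp90aa1, Hsp90ab1, Dnaja1, Dnajb1 and Dnajb4. It mixes inducible genes with Hspa8 and Hsp90ab1, which are mainly constitutive, and with Hspa1l. Of these 13, 12 lay below 0 in neurons, beside 50.8% of all genes, with a median log2 difference of -0.058, against -0.0015 for all genes. The exception was Dnajb4, at 0.027. Without the block 2 of the 13 fell (Dnajb1 and Hspe1), where 2.48% of all genes did, and with it 6, where 5.24% did. In set 1 alone 12 lay below 0 and in set 2 alone 11, with medians of -0.074 and -0.053, and 10 lay below 0 in both. Among the abundant ones that did not pass, Hsp90aa1 gave -0.033 (exact permutation p = 0.171) and Hsp90ab1 -0.0098 (0.629). Hspa8 gave -0.012 (0.743) and Hsph1 (HSP105, the inducible exchange factor) -0.058 (0.229). Hspa1l, at no more than 27.3 normalized counts in any library, gave the most negative difference, -0.30 (exact permutation p = 0.20).

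Among J proteins, 4 of 4 DNAJA, 4 of 10 DNAJB and 15 of 25 DNAJC genes lay below 0, beside 50.8% of all genes, and the families were not tested against each other. The synaptic members Dnajc5 and Dnajc6 did not pass, nor did Dnajb2 and Dnajb6, which are known to keep polyglutamine proteins from aggregating. The 3 HSP110 genes, the 2 HSP90 genes and 8 of 9 HSP70 genes lay below 0, and no gene of these families passed without the block. Hspb7 gave the most positive difference, 0.40 (exact permutation p = 0.343), on a mean of 11.7 normalized counts.

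Among markers, Map2 and Tubb3 rose with Allo in neurons (log2 differences of 0.10 and 0.21, limma p = 0.011 and 0.0027, exact permutation p = 0.0286 for both), 2 of 5 neuron markers tested. Their summed level overlapped between the groups, at 44254 to 48814 normalized counts in AM-Veh and 47975 to 53309 in AM-Allo, as did the astrocyte markers, at 180770 to 240413 and 180239 to 233569. None of the 7 astrocyte markers tested passed without the block, and of all genes 5.69% passed in either direction. With the whole number as the block, Gfap and S100b passed as lower (-0.054 and -0.056, exact permutation p = 0.714 and 0.571). Slc1a2 and Stmn2 passed as higher (0.096 and 0.14, exact permutation p = 0.343 and 0.20), where 10.67% of all genes passed in either direction. Within set 2 the neuron marker sums were separate, at 44254 and 47204 in AM-Veh and 53309 and 52218 in AM-Allo. Within set 1 they overlapped. The part of these markers in the chaperone differences was not tested.

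**Figure D3:**
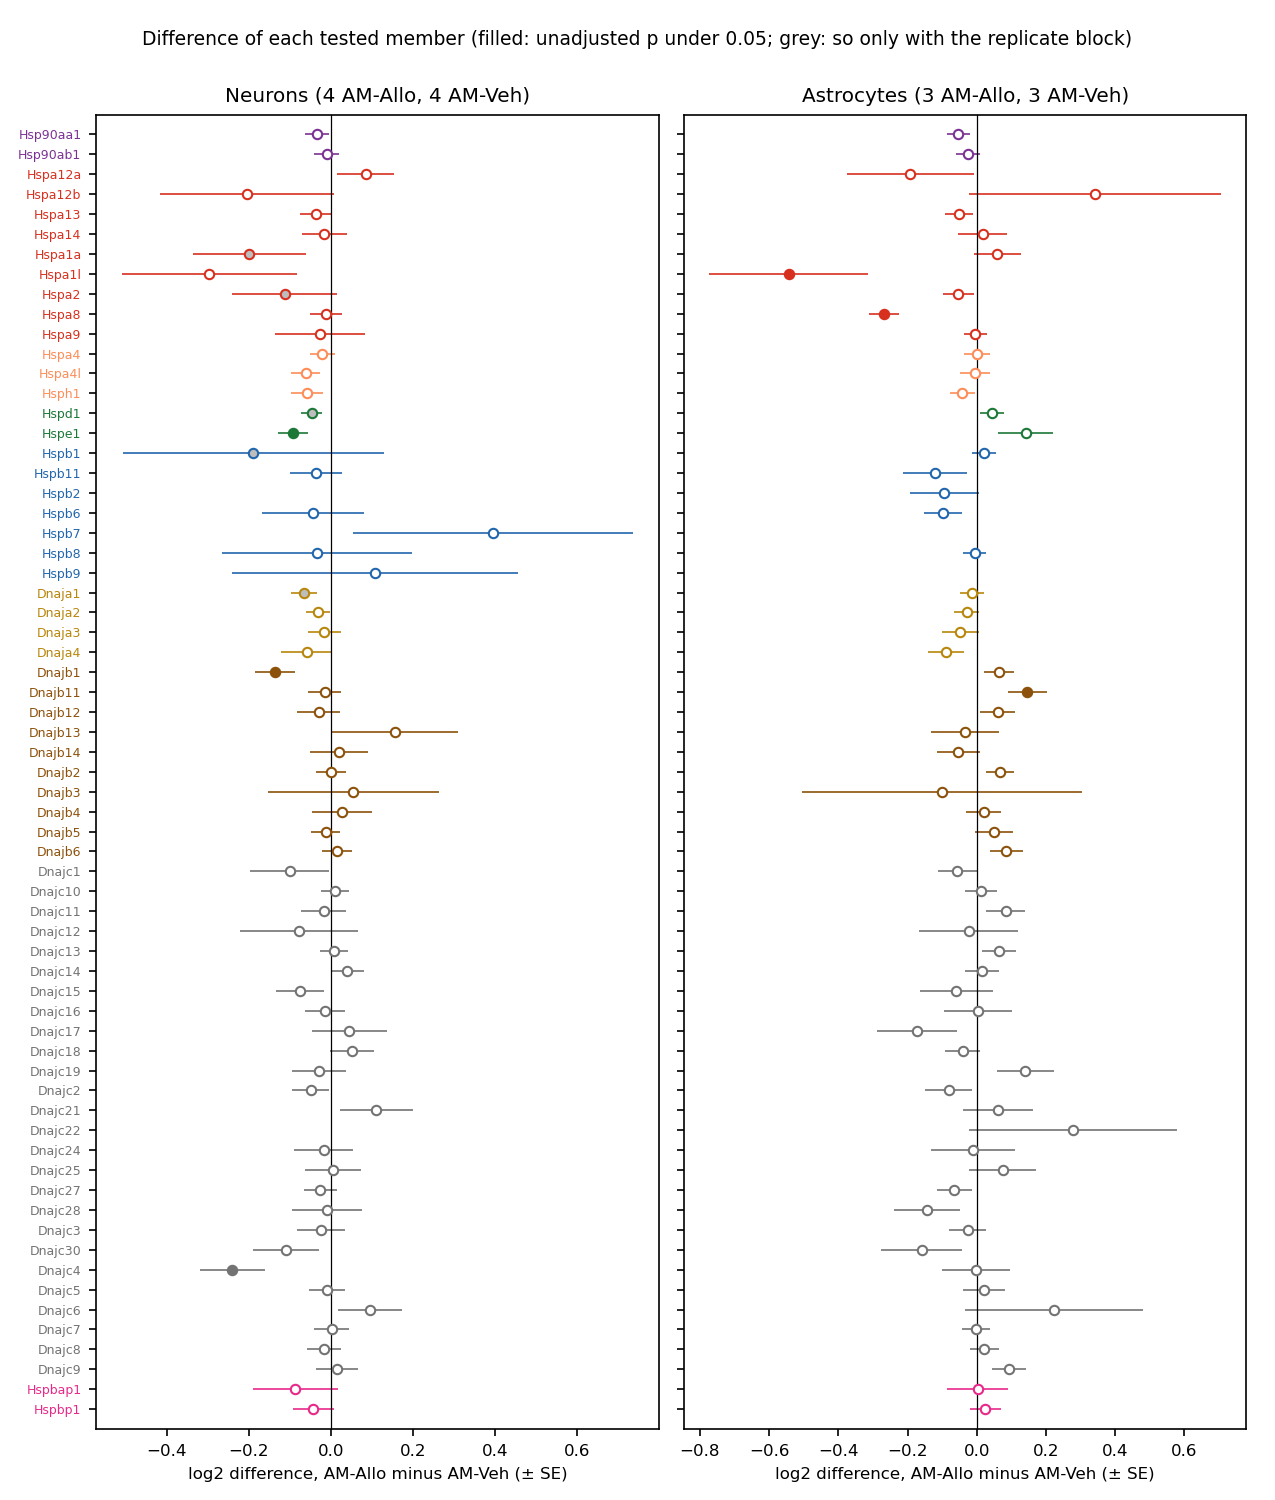
Log2 difference of AM-Allo minus AM-Veh for every tested member, with its standard error, in neurons on the left and astrocytes on the right. Filled points had an unadjusted p under 0.05 and points with a pale grey centre had it only with the replicate set as a block; colours mark families. In neurons 44 of 63 points lie left of 0 and the filled and pale grey ones all do, while in astrocytes Hspa8 and Hspa1l are filled on the left and Dnajb11 on the right.

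Promoter stretches are shown for members whose values are given above or for astrocytes, since the inducible genes are known for the blocks that heat shock factor reads. Promoter windows of RefSeq (build GRCr8, 250 bases before to 50 after the start of each gene) were found for 52 of the 65 members. They were searched for GAANNTTC and TTCNNGAA, each of which reads the same on both strands and which can overlap in a run of blocks. At least 1 match lay in 28.8% of the members' windows (15 of 52) against 15.9% of all 33469 windows, and 2 or more in 17.3% against 2.28%. Of the 11 genes of the heat shock response list with a window, 8 held a match. A match is a description of letters only, and binding was not measured. Stretches upstream of the start are given 5′ to 3′ on the strand of the gene, with each match in capitals, and matches after the start of Dnaja1 and Dnajb1 are not shown.

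Hspb1 (chr12:26432383-26432450, minus strand): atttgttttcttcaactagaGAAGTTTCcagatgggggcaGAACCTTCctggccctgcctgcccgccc
Dnajb1 (chr19:41431142-41431172, minus strand): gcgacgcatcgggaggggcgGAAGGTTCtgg
Dnaja1 (chr5:60638203-60638250, plus strand): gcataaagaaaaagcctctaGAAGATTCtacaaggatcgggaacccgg
Hspa2 (chr6:100864358-100864405, plus strand): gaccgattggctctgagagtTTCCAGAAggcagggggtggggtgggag
Hspe1 (chr9:64084242-64084299, plus strand): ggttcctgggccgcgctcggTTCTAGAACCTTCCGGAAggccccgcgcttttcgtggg
Hspa8 (chr8:50080281-50080491, plus strand): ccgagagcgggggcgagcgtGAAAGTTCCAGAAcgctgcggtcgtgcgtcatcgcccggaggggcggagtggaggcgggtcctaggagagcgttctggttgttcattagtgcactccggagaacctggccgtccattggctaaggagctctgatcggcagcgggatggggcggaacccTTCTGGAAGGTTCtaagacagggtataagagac

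The matches of the Hspe1 stretch also lie in the window of Hspd1, which starts on the other strand, and the windows of both genes share 211 bases of chromosome 9 (64084077 to 64084287). They are 3 overlapping matches in a single run, which the shares and counts above include once for each of these genes. Hspa8, whose window holds 4 matches in 2 runs, is shown for the astrocyte result below. The windows of Dnajc4, Hspa1a, Hspa1l and Hsp90ab1 held no match. Only exact letters in a single window per member were searched, so blocks with other letters or outside the window were not counted.

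In astrocytes the members did not lean one way. Relative to AM-Veh, 3 of 63 passed at an unadjusted p of 0.05, where 7.01% of all 15380 genes passed in either direction. Hspa8 and Hspa1l fell and Dnajb11 rose, and none passed the adjustment, the lowest adjusted p being 0.096 for Hspa8. Of the 63, 34 lay below 0 (54.0%), against 49.3% of all genes, with a median log2 difference of -0.0042. No member was called in both cultures. Without AM-Veh 1 the count was 1 (Hspa8) in place of 3.

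Hspa8 (HSC70), the constitutive HSP70 that uncoats clathrin and carries clients to the lysosome, had the clearest difference. Its AM-Veh libraries stood at 5654, 5580 and 5563 normalized counts and its AM-Allo libraries at 4995, 4444 and 4528. All 3 AM-Allo libraries were below AM-Veh, with AM-Allo 1 the nearest, and the means were 5599 ± 48.3 (SD, n = 3) and 4656 ± 297 (SD, n = 3). The log2 difference was -0.27 ± 0.043 (SE; 95% interval -0.36 to -0.17), with p = 3.1e-05 by limma and an exact permutation p of 0.10, the smallest that 3 against 3 allows. The unadjusted call held in each of 16 other settings, among them each library left out, while the adjusted p ran from 0.0026, without AM-Allo 1, to 0.743. RefSeq names 33 pseudogenes after Hspa8, the most of any member, so reads of near-identical copies could be split by the counting, and its level is uncertain to that extent.

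Hspa1l, an HSP70 next to Hspa1a in the genome and best known from the testis, stood at 51.1, 54.4 and 55.2 normalized counts in AM-Veh and 41.0, 44.0 and 26.8 in AM-Allo. The groups were separate, with AM-Allo 3 the lowest. The log2 difference was -0.54 ± 0.23 (SE), with p = 0.034 by limma and an exact permutation p of 0.10. Without AM-Allo 3 it was -0.33 and missed the threshold, as it did without any 1 of the AM-Veh libraries (-0.58 to -0.52). Dnajb11, the J protein of the ER lumen, stood at 1140, 1239 and 1258 in AM-Veh and 1366, 1252 and 1409 in AM-Allo. AM-Allo 2 lay within the AM-Veh range, and the log2 difference was 0.15 ± 0.057 (SE), with p = 0.023 by limma and an exact permutation p of 0.20. Leaving out AM-Veh 1 (0.10), AM-Allo 1 (0.13) or AM-Allo 3 (0.11) ended the call.

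Groups were separate for 8 of the 63 members in astrocytes, where 12.5% of all genes were, so the share was near the background. The 6 lower ones were Hspa8, Hspa1l, Hsph1, Hsp90aa1, Dnajc1 and Dnajc28, and the 2 higher ones Dnajb1 and Dnajc19, a J protein of the mitochondrial import motor. Dnajb1 stood at 1392, 1356 and 1407 normalized counts in AM-Veh and 1479, 1440 and 1423 in AM-Allo. That is a log2 difference of 0.063 (exact permutation p = 0.10), where neurons gave -0.14. Hsp90aa1 stood at 22345, 21522 and 21207 against 21137, 20530 and 21041, a log2 difference of -0.053 (exact permutation p = 0.10).

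Of the 13 genes of the heat shock response list 7 lay below 0, beside 49.3% of all genes, with a median of -0.0058, against 0.0014 for all genes. The 2 that fell were Hspa1l and the mainly constitutive Hspa8, where 3.29% of all genes fell. Hspa1a stood at 1496, 1528 and 1516 normalized counts in AM-Veh and spread from 1380 to 1726 in AM-Allo, a log2 difference of 0.060 (exact permutation p = 0.60). Hspb1 gave 0.020 (exact permutation p = 0.60), and the mitochondrial pair Hspd1 and Hspe1 gave 0.044 (0.30) and 0.14 (0.20). The ependymal markers were lower in AM-Allo astrocytes, at 2705 to 3021 summed normalized counts against 3117 to 3436, and 3 of 4 fell, whereas the ciliary member Dnajb13 gave -0.034 (exact permutation p = 0.90). The microglia markers overlapped, at 931 to 1081 against 953 to 1238, with 1 of 6 lower. Of the astrocyte markers 2 of 7 also fell, and of the neuron markers 1 of 4, beside 3.29% of all genes. The part of these cells in the chaperone differences was not tested.

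**Figure D4:**
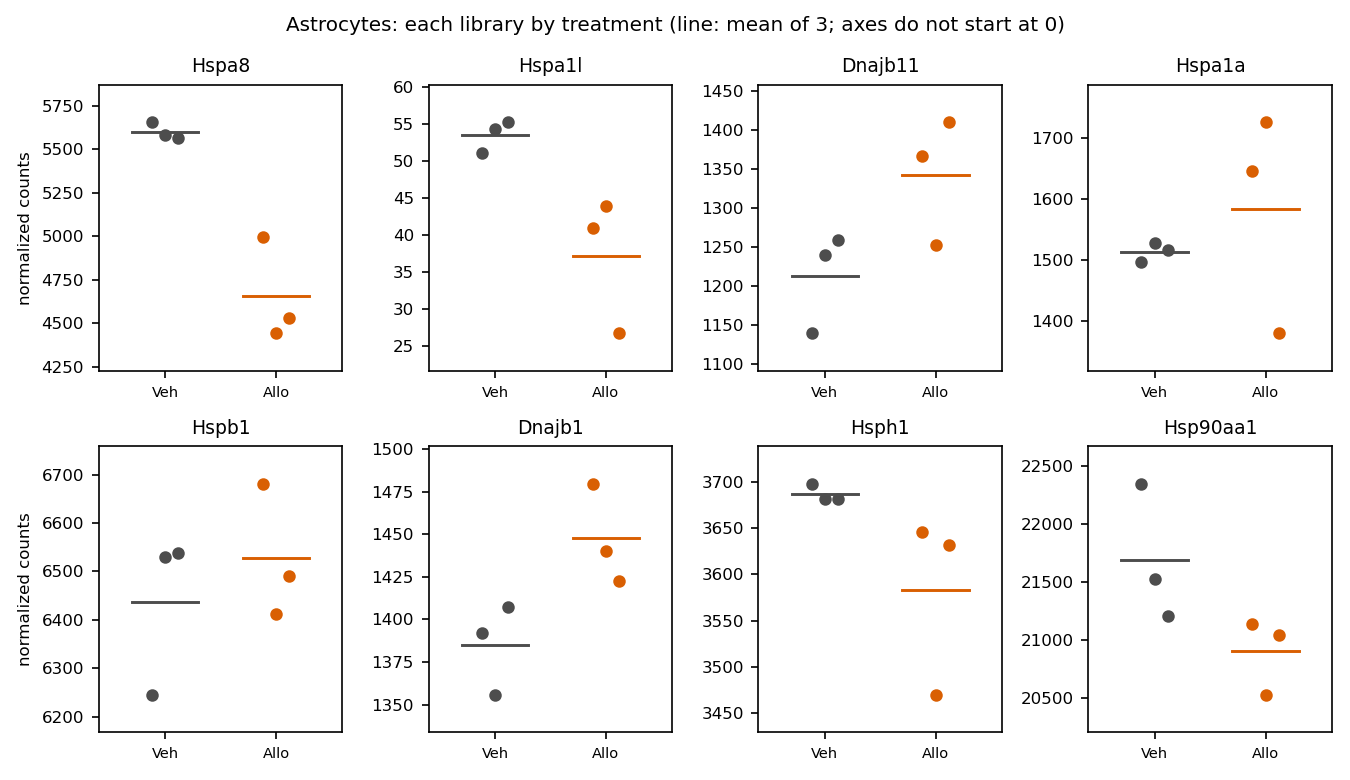
Normalized counts of 8 members in astrocytes, with a point for each library, a line at the mean of 3, AM-Veh in grey and AM-Allo in orange. Hspa8 and Hspa1l are separate with AM-Allo lower, Dnajb11 overlaps, Hspa1a and Hspb1 overlap, and Dnajb1 is separate with AM-Allo higher. The vertical axes do not start at 0.

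Partners of these chaperones that carry other symbols were counted in the same fits. Of the heat shock factors and cochaperones of HSP70 and HSP90, 36 were tested in each culture. In neurons 5.69% of all genes passed and in astrocytes 7.01%. Fkbp5, an HSP90 cochaperone that dampens the glucocorticoid receptor, was the 1 called in both. It fell in neurons, from 488 ± 29.0 (SD, n = 4) to 425 ± 13.6 (SD, n = 4) normalized counts, a log2 difference of -0.20 (limma p = 0.0072, exact permutation p = 0.0286). In astrocytes it rose, from 303 ± 13.0 (SD, n = 3) to 351 ± 26.8 (SD, n = 3), a log2 difference of 0.21 (limma p = 0.030, exact permutation p = 0.10), a call that ended when AM-Veh 1, AM-Veh 3, AM-Allo 1 or AM-Allo 3 was left out. Hsf1, the main heat shock factor, gave -0.075 (exact permutation p = 0.371) in neurons and 0.0099 (0.90) in astrocytes. Bag3, which joins Hspb8 to HSP70, gave -0.068 (exact permutation p = 0.571) and -0.011 (0.90).

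Of 18 chaperonin, prefoldin and crystallin genes tested in each culture, 0 passed in neurons without the block, where 5.69% of all genes did. With the block 1 passed as lower, where 5.24% of all genes did. Of the 18, 15 lay below 0 in neurons, beside 50.8% of all genes. In astrocytes Pfdn2 rose (0.14, limma p = 0.037) and Pfdn5 fell (-0.10, limma p = 0.033; exact permutation p = 0.10 for both), both subunits of prefoldin, which passes actin and tubulin to the chaperonin. These calls were 2 of 18, where 7.01% of all genes passed in astrocytes. They were lost in 6 and 5 of 16 other settings. Cryab, a small heat shock protein by structure, was the 1 that passed with the block in neurons, at -0.15 (limma p = 0.011 with the whole number as the block, 0.22 with none, exact permutation p = 0.343), and gave 0.043 (0.60) in astrocytes.

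The neuron replicate sets differed in genes at large, some members among them. With treatment in the fit, 9 of 63 members passed the adjusted threshold between set 2 and set 1, 8 higher and 1 lower. Of all genes 17.2% passed in either direction and 9.61% as higher. The share of members was thus below the background in total and not far from it as higher. Under quantile normalization the split was 6 and 2, and without AM-Veh 1-2 it was 6 and 4. The higher ones were Hspb1, Hspb8, Hspa9, Hspa2, Hspb6, Hspa1a, Dnajb4 and Dnajb14, and Dnajc11 was lower. Hspb1 rose from 588 ± 62.4 (SD, n = 4) normalized counts in set 1 to 1184 ± 105 (SD, n = 4) in set 2, a log2 difference of 1.01 ± 0.056 (SE; adjusted p = 1.2e-08 by limma).

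Hspb8, which works with Bag3 in the disposal of aggregates, stood at 2027, 2086, 2028 and 2084 normalized counts in set 1 and 3235, 3751, 3145 and 3519 in set 2. The sets were far apart, with a log2 difference of 0.73 ± 0.045 (SE; adjusted p = 3.4e-08). Hspa9 stood at 9777 to 10023 in set 1 and 12053 to 12976 in set 2, a log2 difference of 0.34 ± 0.025 (SE; adjusted p = 1.7e-07). All 9 differences had the same sign in the AM-Veh libraries alone and in the AM-Allo libraries alone. Dnajb4 and Dnajb14 were near the threshold (adjusted p = 0.034 and 0.049) and missed it without most single libraries, Dnajb14 without any of the 8 and Dnajb4 without AM-Veh 1-2, AM-Veh 2-1 or any AM-Allo library.

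Other genes moved with the sets. The astrocyte markers summed to 180239 to 191237 normalized counts in set 1 and 220105 to 240413 in set 2, with no overlap. Gfap was higher in set 2 by 0.62 on the log2 scale, and Aqp4, S100b and Slc1a2 by 0.17, 0.23 and 0.15, but Aldoc was lower, at -0.21 (adjusted p = 3.5e-05 by limma), and Slc1a3 and Sox9 did not pass. The oligodendrocyte lineage markers summed to 41462 to 44449 in set 1 and 37176 to 37787 in set 2, and the mesenchymal markers to 988 to 2557 and 625 to 778. The ependymal markers, at 705 to 724 and 759 to 844, were separate too. The neuron markers overlapped, at 45881 to 49655 and 44254 to 53309. Of the 8 members higher in set 2, Hspa9 had the higher CPM in neurons and the other 7 in astrocytes. Of all 65 members, 24 had the higher CPM in astrocytes. Among the 7, Dnajb4 and Dnajb14 were near the adjusted threshold and had neuron to astrocyte ratios of 0.718 and 0.738. The part of the cell types in the set differences was not tested, and the labels do not say what the first part of the number stands for.

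**Figure D5:**
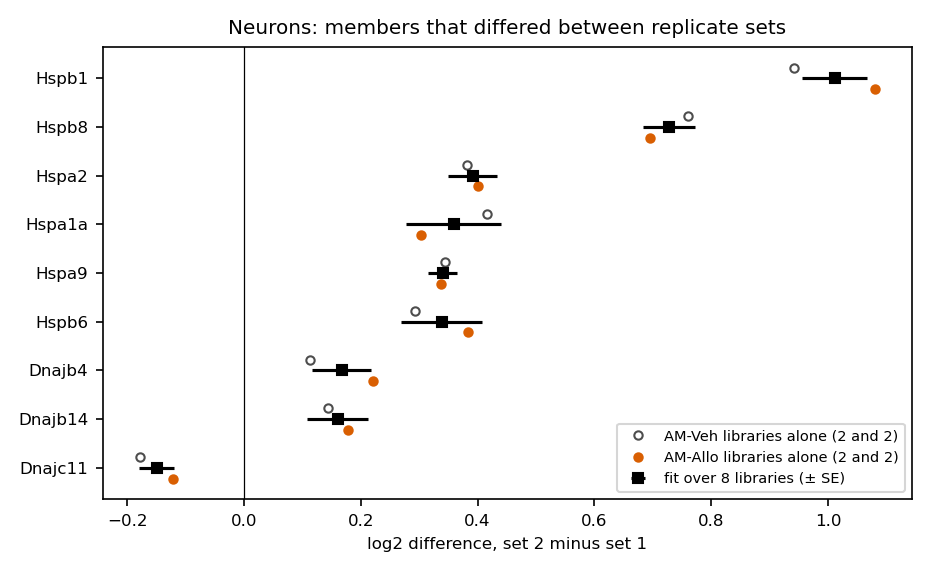
Log2 difference of set 2 minus set 1 in neurons for the 9 members past an adjusted p of 0.05. Squares with bars give the fit over 8 libraries with its standard error, open circles the AM-Veh libraries alone and filled circles the AM-Allo libraries alone. Hspb1 and Hspb8 lie farthest to the right and Dnajc11 is the one on the left.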

How the data were processed

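RNA was poly(A)-selected, made into stranded libraries and sequenced as paired ends. Per the labels and the study's methods, the authors quantified rat transcripts (Ensembl release 95) with Salmon 0.14, collapsed transcripts to genes (tximport) and scaled the libraries with DESeq2 1.18.1. The authors deposited, for each culture, a signal table of normalized counts per gene and a table of variance-stabilized values on a log2 scale. The counts are not whole, and reads could not be recovered as whole numbers for nearly all genes (54.8% to 89.5% of low values were whole to within 0.15 of a read), so no count model was used, and depth was estimated from the step between low values. No column was left unused (0).

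Tests used log2 of the normalized count plus 1, and genes with a mean of at least 10 were tested with limma 3.58.1 (R 4.3.3; lmFit, eBayes with trend), two-sided, in each culture alone. Log2 differences are on this scale, which understates the change of low genes. The study's unadjusted p of 0.05 was used, with Benjamini-Hochberg adjustment over all genes. The fits were also run on simulated data with large changes and no set differences, which does not test the small differences given here. In neurons, libraries with the same number deviated together over genes (r = 0.229 to 0.296, and 0.185 to 0.236 for the same first part, against -0.319 to -0.150 for other pairs), a pairing read from the data and not from the labels' wording.

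The members and gene lists were chosen with earlier results of these data known. Genes named are members called or separate between groups, those of the heat shock response list, those with the most counts or the most unequal levels, those that differed between sets and called partners. Promoters came from RefSeq (GRCr8). Alternatives were pseudocounts of 0.5 and 5, no minimum or a minimum of 50, upper-quartile and quantile scaling, no trend, a robust fit, variance-stabilized values, replicate blocks and each library left out.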

Additional observations from a re-analysis of the deposited data

Results flagged for a closer look

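In 130 groups of 4 neuron libraries (65 members in AM-Veh and AM-Allo), 2 had a library far from the other 3 by Dixon's test, 1.54% where chance gives about 1 in 20. Dnajc1, an ER J protein, stood at 380 normalized counts in AM-Veh 1-1 and at 342 to 347 in the other AM-Veh libraries (gap over range 0.856), and AM-Allo 1-1 also stood at 380. Dnajc21, a J protein of ribosome assembly, stood at 232 in AM-Allo 2-2 and at 280 to 283 in the other AM-Allo libraries (gap over range 0.937). The AM-Veh libraries of Dnajc21 ran from 230 to 276.

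At the unadjusted threshold Fkbp5 fell in neurons and rose in astrocytes, with every AM-Allo library below AM-Veh in neurons and above it in astrocytes. Its adjusted p by limma was 0.65 in neurons and 0.68 in astrocytes. Of all genes, 1.89% were separate as lower in neurons and 12.5% were separate in either direction in astrocytes. The log2 differences lay -0.41 apart (neurons minus astrocytes), and this difference was not tested, since the tables were normalized separately.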

How the results depend on the processing

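In neurons the count of 3 members called was 9 with variance-stabilized values, where 14.4% of all genes passed in either direction. All 9 were lower, where 6.93% of all genes passed as lower. The authors' table of these values has the set means removed. The count was 7 with the whole number as the replicate block, where 5.04% of all genes passed as lower. It was 8 with the first part as the block, where 5.24% did, and 1 to 5 with each library left out. Hspb1, at -0.19, ran from -0.40 to 0.0011 with a library left out, the highest without AM-Allo 1-1. Beyond the calls given above, the replicate block changed no call among the neuron members. Partners called in neurons were 5 in place of 1 with variance-stabilized values, where 14.4% of all genes passed, and 1 to 2 with a library left out. Chaperonin, prefoldin and crystallin genes were 1 in place of 0 with variance-stabilized values and with either replicate block, and 0 to 1 with a library left out. In astrocytes 1 to 4 members were called with a library left out. At the adjusted threshold it was 1 in place of 0 with a robust fit and with the replicate block (Hspa8), and 0 to 1 with a library left out, where AM-Allo 1 gave the 1. The astrocyte numbers share only a number (r = -0.0070 to 0.024). Partners were 2 without the trend and 0 to 3 with a library left out, and chaperonin genes were 1 with upper-quartile or quantile scaling, 0 without the trend and 0 to 2 with a library left out. The astrocyte median of -0.0042 was -0.018 with upper-quartile scaling, -0.013 with quantile normalization and -0.017 to 0.00055 with a library left out. The causes of these shifts were not tested. Between the sets 9 members passed the adjusted threshold, 8 or 9 under the other scalings and fits and 7 to 10 with a library left out. The set comparison with variance-stabilized values could not be run, because the set means are removed there. The sum of Hspa1a with Hspa1b could not be run either, because Hspa1b was not among the symbols. A gene at the minimum stands on about 10 reads, so small changes of the lowest members were not detectable at this depth.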
